A study of Mus musculus with 7 samples.

Results

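Slits, netrins, semaphorins and the repulsive guidance molecules (RGMs) are extracellular cues that steer growing axons, and they were examined here together with their receptors in the neonatal mouse dorsal midbrain. The rule that chose the genes used symbols only: *Slit1* to *Slit3*, *Robo1* to *Robo4*, the numbered semaphorins and plexins, *Nrp1* and *Nrp2*, the netrins and netrin-Gs, *Dcc*, *Neo1*, *Unc5a* to *Unc5d*, *Rgma*, *Rgmb* and *Draxin*. Of the 52636 genes counted in each library, 52 met this rule. By role they comprised 3 Slits, 4 Robos, 5 netrins and netrin-Gs, 6 receptors of netrins and RGMs, 3 genes for RGMs and Draxin, 7 secreted and 13 membrane-bound semaphorins, 2 neuropilins and 9 plexins. *Ntn3*, which the rule also names, was not analysed here.

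Slits bind Robo receptors and mostly repel axons, a system best known for keeping axons from crossing or recrossing the midline. Netrins attract axons through DCC and repel them through UNC5 receptors, and RGMs act through neogenin. Secreted class 3 semaphorins signal through neuropilins paired with plexins, whereas most membrane-bound semaphorins bind plexins directly. In the developing midbrain these cues help to place commissural and longitudinal tracts and the incoming retinal axons.

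The libraries came from the dorsal midbrain of 7 mice, 3 controls (A2, A4 and A6) and 4 mice with conditional loss of *Brn3b* (cKO, B1, B7, B8 and B9). *Brn3b* (*Pou4f2*) encodes a POU-homeodomain transcription factor of subsets of retinal ganglion cells and midbrain neurons. All 7 mice carried *En1-Cre*, which is active in the midbrain and hindbrain. Controls carried 1 floxed and 1 wild-type *Brn3b* allele and are labelled heterozygous, and cKO mice carried 1 floxed and 1 null allele and are labelled homozygous. After recombination the floxed allele expresses human placental alkaline phosphatase from the *Brn3b* locus in both groups, so no group was free of Cre or of a recombined allele. A2, A6, B1 and B8 were taken at P4, A4 at P3, and B7 and B9 at P2. P2 was therefore represented among cKO mice only, and the sex of the mice was not given in the labels.

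The deposited values were raw counts from polyA-enriched RNA. A library held 23588248 (A2) to 87572085 (B9) counts that named a gene. *Brn3b* lay between 45.8 and 47.4 library-scaled counts (CPM, scaled by the library size) in the controls and between 9.65 and 11.6 CPM in the cKO mice, with B8 at 10.6 CPM. All 10 dorsal midbrain markers examined were present, and 4 hindbrain *Hox* genes summed to at most 0.141 CPM in any library. Of the 52 guidance genes, 51 passed the filter on low counts. The exception was *Ntn5*, with 0.141 to 0.443 CPM. Tested guidance genes had 42 to 36025 counts per library. In such bulk samples fewer cells of a type and less RNA per cell cannot be told apart.

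Levels were compared between genes as CPM per kilobase of exon, since longer genes collect more reads. The receptor gene *Plxna1* had the highest level in controls, at 29.5 ± 1.51 CPM per kb (SD, n = 3). It was followed by *Sema6b* at 27.8 ± 2.42, *Rgma* at 25.7 ± 1.10, *Neo1* at 24.2 ± 2.31, *Sema4g* at 23.1 ± 1.72 and *Sema6a* at 21.4 ± 1.62 CPM per kb. Each of these 6 differed from its neighbour among the 6 by less than the larger of their SDs. *Ntng2* (18.4), *Sema7a* (17.99), *Sema6c* (17.3) and *Plxna3* (17.3) completed the first 10, all of which encode receptors or membrane-bound ligands.

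The diffusible cues ranked lower on the same scale. *Slit1* was the leading Slit at 11.4 ± 1.15 CPM per kb, against 1.35 ± 0.173 for *Slit2* and 0.504 ± 0.1001 for *Slit3* (SD, n = 3 controls). *Ntn1* was at 4.97 ± 1.20 and *Ntn4* at 0.907 ± 0.203 CPM per kb. Among the secreted semaphorins, *Sema3f* (13.02 ± 1.71) and *Sema3c* (6.74 ± 0.258) stood above the other 5, which lay between 0.203 (*Sema3a*) and 1.10 (*Sema3b* and *Sema3e*) CPM per kb. Of the Robos, *Robo2* (10.1 ± 0.588) and *Robo1* (5.39 ± 0.641) exceeded *Robo3* (1.41 ± 0.302) and *Robo4* (1.34 ± 0.0927), and the latter pair differed by less than their SDs. *Nrp2* (10.3 ± 1.00) was above *Nrp1* (6.198 ± 0.579). With the longest transcript as the length instead, 8 of the first 10 genes were still among the first 10, but *Sema4g* was first (43.9 CPM per kb), *Plxna1* came 4th and *Sema6b* 5th (29.5 CPM per kb), so the order at the top depends on the length used.

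**Figure D1:**
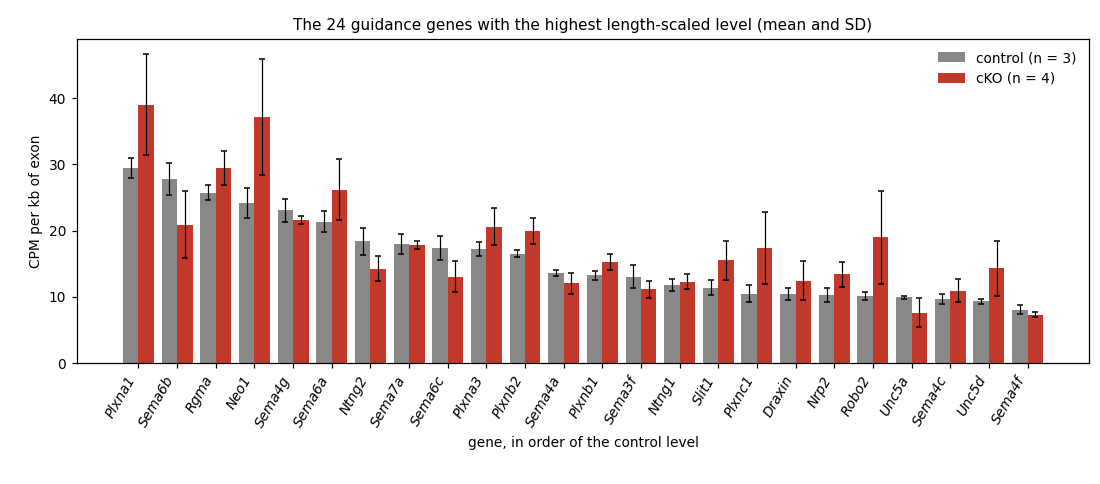
The bars give the mean level in CPM per kilobase of exon for the 24 guidance genes with the highest control level, in controls (grey, n = 3) and cKO mice (red, n = 4), with SD as error bars. *Plxna1* leads in both groups, at 29.5 CPM per kb in controls and 39.0 in cKO mice, and the SD is wider in cKO mice for *Neo1*, *Robo2* and *Plxnc1*.

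The study compared cKO with control mice to learn which genes differ when *Brn3b* is lost. In edgeR's quasi-likelihood test of all 7 mice, 0 of the 51 guidance genes tested had an adjusted p under 0.05, where 0.00458% of all genes did, and the lowest adjusted p of a guidance gene was 0.138. Without adjustment, 23 had a p under 0.05 and a higher mean in cKO mice and 2 (*Ntng2* and *Sema6c*) a lower mean. The shares over all genes tested were 16.7% higher and 13.7% lower. DESeq2, the tool named in the study's methods, called 15 of the 51 higher and 0 lower at an adjusted p under 0.05, against 7.41% and 3.04% of all genes. The log2 fold changes ran from −0.42 (*Sema3b*) to 2.27 (*Dcc*) with a median of 0.29, beside a median of 0.0025 over all genes tested. In all, 38 were above 0 and 13 below.

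In 10 guidance genes every cKO mouse lay above every control, and in 0 every cKO mouse lay below. These 10 were 19.6% of the guidance genes tested, and the shares of all genes tested were 6.03% higher and 8.01% lower. They were *Sema3a*, *Plxna2*, *Sema6d*, *Ntn1*, *Sema4d*, *Sema3e*, *Neo1*, *Plxnb2*, *Plxnb1* and *Rgma*, in order of the log2 fold change. For each of them the exact permutation test over the 35 splits of the mice gave a two-sided p of 0.0571, the smallest that 3 mice against 4 allow. With A2, A6 or B8 left out, the counts of guidance genes without overlap were 21, 17 and 36, and the same shares of all genes, both directions together, were 28.8%, 23.5% and 56.2%.

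**Figure D2:**
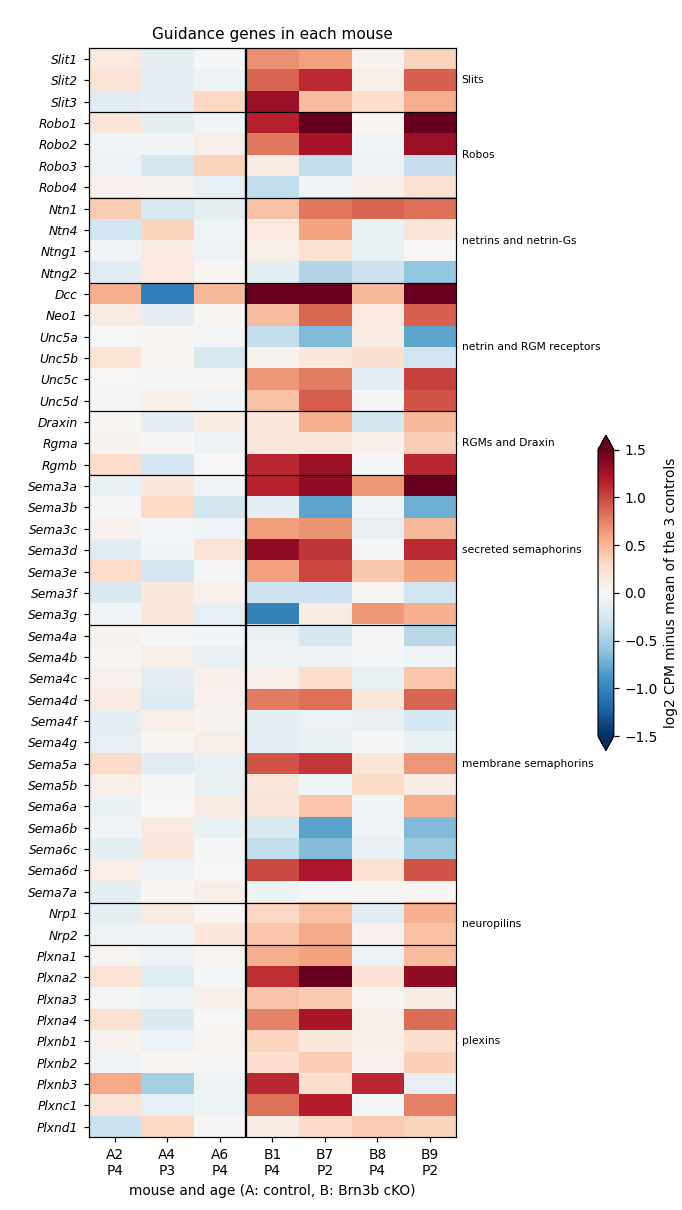
Each cell gives log2 CPM minus the mean of the 3 controls (red higher, blue lower, colours saturating at the ends of the scale) for 51 guidance genes in rows, grouped by role, and the 7 mice in columns with their ages. B1, B7 and B9 share a largely red pattern, with median differences of 0.32, 0.44 and 0.44 on the log2 scale, while B8 has a median difference of 0.04.

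All 3 Slits and the receptor genes *Robo1* and *Robo2* were higher in B1, B7 and B9 than in every control, whereas B8 was not above the controls. *Slit2*, a secreted ligand, spans 47983138 to 48307733 on chromosome 5 (plus strand, build GRCm38). It was at 39.3 CPM in A2, 31.1 in A4 and 32.4 in A6, whereas B1, B7, B8 and B9 had 62.6, 73.9, 36.3 and 63.5 CPM. B1, B7 and B9 were above every control and B8 lay inside the control range. The mean was 34.3 ± 4.4 CPM in controls (SD, n = 3) and 59.1 ± 16.0 CPM in cKO mice (SD, n = 4), with a log2 fold change of 0.79 (SE 0.23, edgeR adjusted p = 0.138). With a correction for GC content and length, described further on, it was 0.039 (edgeR adjusted p = 0.840). *Slit1* was at 74.7, 61.1 and 66.7 CPM in A2, A4 and A6, and at 109, 103, 69.9 and 85.7 CPM in B1, B7, B8 and B9. *Slit3* had low levels, at 2.70, 2.72 and 3.76 CPM in the controls and 7.41, 4.16, 3.62 and 4.42 CPM in the cKO mice in the same order. In both Slits, too, only B8 of the cKO mice overlapped the controls, and the adjusted p was 0.140 for *Slit1* and 0.157 for *Slit3*.

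Among the receptors, *Robo1* on chromosome 16 (72308306 to 73046095, plus strand) was at 101, 79.9 and 86.4 CPM in the controls A2, A4 and A6. In the cKO mice the same order of mice gave 199 (B1), 306 (B7), 90.6 (B8) and 307 CPM (B9). B8 was inside the control range, and the 3 other cKO mice averaged 3.04 times the control mean. The log2 fold change over all mice was 1.34 (SE 0.36, edgeR adjusted p = 0.138). *Robo2*, its neighbour on the opposite strand of chromosome 16 (73891839 to 74411825), was at 166, 167 and 184 CPM in the controls and at 297, 405, 165 and 424 CPM in B1, B7, B8 and B9. B8 here lay below all controls and the other 3 cKO mice far above them. The log2 fold change was 0.90 (SE 0.28, edgeR adjusted p = 0.138), and with the same correction it was 0.19 (edgeR adjusted p = 0.371), where that of *Robo1* was 0.74 (edgeR adjusted p = 0.137).

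The remaining Robos did not share this pattern. *Robo3*, which modulates Slit responses before midline crossing, was at 8.96, 8.02 and 11.98 CPM in controls and 10.4, 7.34, 8.94 and 7.50 CPM in cKO mice, a log2 fold change of −0.18 (SE 0.21, edgeR adjusted p = 0.568). *Robo4*, an endothelial member, ranged from 6.54 to 7.43 CPM in controls and from 5.49 to 8.32 CPM in cKO mice. The groups overlapped for both. *Robo1* made up 32.0% to 37.8% of the summed CPM of *Robo1* and *Robo2* in controls and 40.1%, 43.0%, 35.5% and 42.0% of it in B1, B7, B8 and B9, so its share in the 3 cKO mice other than B8 was above every control.

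Of the netrins, *Ntn1* encodes the classical secreted attractant and lies on the minus strand of chromosome 11 from 68209364 to 68400823. It was at 39.9 CPM in A2, 26.1 in A4 and 27.7 in A6, and B1, B7, B8 and B9 had 41.5, 52.9, 56.3 and 54.3 CPM. The groups did not overlap, although B1 and A2 were close, and here B8 was the highest of all mice. The mean was 31.2 ± 7.53 CPM in controls (SD, n = 3) and 51.3 ± 6.64 CPM in cKO mice (SD, n = 4), with a log2 fold change of 0.72 (SE 0.19, edgeR adjusted p = 0.138, DESeq2 adjusted p = 0.0246). The membrane-anchored netrin-Gs went other ways. *Ntng2* was at 64.8, 80.7 and 74.2 CPM in controls and 66.5, 53.7, 58.2 and 48.7 CPM in B1, B7, B8 and B9, with B1 inside the control range (log2 fold change −0.37, SE 0.15, edgeR adjusted p = 0.144). *Ntng1* ranged from 91.1 to 106 CPM in controls and from 90.8 to 113 CPM in cKO mice, and the groups also overlapped for *Ntn4*, a netrin of basement membranes. *Ntng2* shares exon bases with another gene on the same strand, so part of its count is uncertain.

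*Dcc*, the receptor through which netrin-1 attracts axons, had the largest log2 fold change of the guidance genes. It spans chromosome 18 from 71253634 to 72351069 on the minus strand. Its level was 7.63 CPM in A2, 2.55 in A4 and 7.34 in A6, against 31.7, 37.6, 7.32 and 34.9 CPM in B1, B7, B8 and B9. B8 fell between the controls, while B1, B7 and B9 averaged 5.95 times the control mean. The log2 fold change was 2.27 (SE 0.57), and the adjusted p was 0.138 in edgeR and 0.0269 in DESeq2. In the exact permutation test of the same values the two-sided p was 0.171.

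*Neo1*, which encodes the RGM and netrin receptor neogenin, was at 229, 189 and 214 CPM in A2, A4 and A6 and at 290, 382, 232 and 391 CPM in B1, B7, B8 and B9. The groups did not overlap, but B8 exceeded A2 by a small margin only. Its log2 fold change was 0.62 (SE 0.19), with an adjusted p of 0.138 in edgeR and 0.0488 in DESeq2, and it was 0.26 (edgeR adjusted p = 0.184) with the GC content and length correction. The UNC5 receptors, which mediate repulsion from netrins, split before that correction. *Unc5d* was at 84.3, 90.2 and 82.9 CPM in controls and 116, 161, 84.2 and 165 CPM in cKO mice, whereas *Unc5a* was at 41.3, 42.1 and 40.4 CPM in controls and 32.2, 26.2, 44.5 and 23.9 CPM in cKO mice. The ratio of *Unc5a* to *Unc5d* CPM was 0.467 to 0.490 in controls and 0.277, 0.162, 0.528 and 0.145 in B1, B7, B8 and B9. *Unc5c* had a log2 fold change of 0.63, and *Unc5b*, a vascular UNC5, had 0.04. After the correction for GC content and length, *Unc5c* was at −0.067 (edgeR adjusted p = 0.750). In the same fit *Unc5d* was at 0.14 (edgeR adjusted p = 0.503) and *Unc5a* at −0.074 (edgeR adjusted p = 0.708). The ratio above was not corrected. None of the 4 passed edgeR's test of all mice, with adjusted p from 0.138 to 0.896.

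The RGM ligands of neogenin were represented by *Rgma* at 147, 145 and 136 CPM in A2, A4 and A6 and at 160, 160, 150 and 184 CPM in B1, B7, B8 and B9. The groups were separate but the step was small, with a log2 fold change of 0.19 (SE 0.12, edgeR adjusted p = 0.280). With the GC content and length correction the log2 fold change of *Rgma* was larger, at 0.44 (edgeR adjusted p = 0.140). With B8 also left out it was 0.55 (edgeR adjusted p = 0.0034). *Rgmb*, which also binds bone morphogenetic proteins, was at 50.03, 34.6 and 41.8 CPM in controls and at 90.9, 101, 40.7 and 91.4 CPM in cKO mice. B8 again lay among the controls, and the log2 fold change was 0.95 (SE 0.29, edgeR adjusted p = 0.138). *Draxin*, a secreted repellent that binds DCC, was at 55.3, 49.0 and 58.4 CPM in controls and at 60.3, 78.1, 44.6 and 75.9 CPM in cKO mice. B8 was the lowest of all 7 mice, and the log2 fold change of 0.26 (SE 0.20, edgeR adjusted p = 0.380) rested on the other cKO mice.

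**Figure D3:**
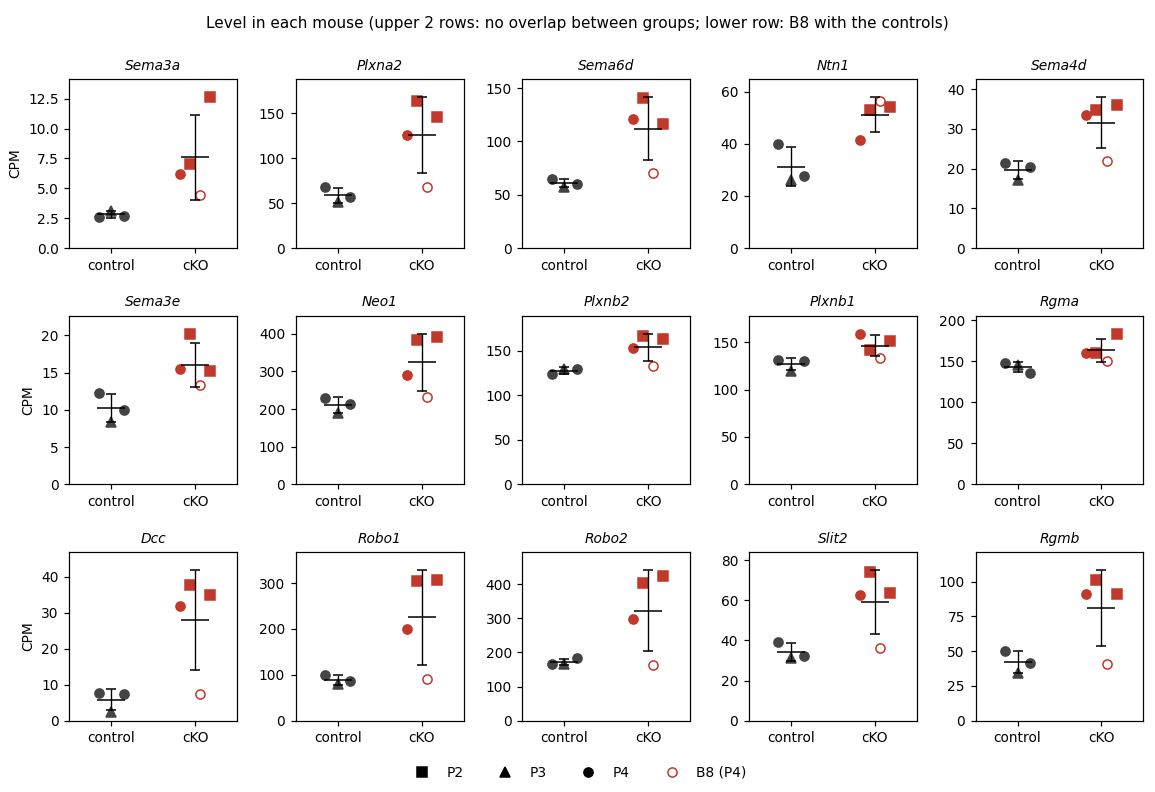
Each panel plots the CPM of 1 gene in every mouse on a linear axis from 0 (grey controls, red cKO mice, marker shape for age, open circle for B8), with the mean and SD of each group in black. The upper panels hold the 10 genes whose groups do not overlap, and in the lower panels (*Dcc*, *Robo1*, *Robo2*, *Slit2* and *Rgmb*) the open circle of B8 lies at the level of the controls.

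Of the 7 secreted class 3 semaphorins, *Sema3a*, a repellent acting through NRP1, was the least abundant per length and had the second largest log2 fold change of the guidance genes. It was at 2.61, 3.12 and 2.70 CPM in A2, A4 and A6 and at 6.23, 7.03, 4.43 and 12.6 CPM in B1, B7, B8 and B9. Every cKO mouse was above every control, and B8 was the nearest to them. The log2 fold change was 1.43 (SE 0.34, edgeR adjusted p = 0.138, DESeq2 adjusted p = 0.0072). *Sema3e*, a ligand of plexin-D1, was at 12.2, 8.42 and 10.01 CPM in controls and at 15.5, 20.2, 13.3 and 15.2 CPM in cKO mice, again without overlap (log2 fold change 0.65, SE 0.20, edgeR adjusted p = 0.138). *Sema3d* and *Sema3c* had log2 fold changes of 0.95 and 0.45 with B8 within or below the control range, and 0.44 and 0.061 with the GC content and length correction.

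*Sema3f*, the NRP2 ligand and the leading secreted semaphorin by length-scaled level, differed in the other direction. It was at 57.7, 74.8 and 70.5 CPM in controls and at 54.4, 54.1, 68.0 and 54.6 CPM in cKO mice. B1, B7 and B9 lay below every control and B8 inside their range, with a log2 fold change of −0.23 (SE 0.15, edgeR adjusted p = 0.296). With the GC content and length correction the log2 fold change of *Sema3f* was −0.046 (edgeR adjusted p = 0.813). *Sema3b* and *Sema3g* were at 1.496 to 6.35 CPM in every mouse, and their groups overlapped.

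The promoter of *Sema3e* is shown because it alone among those examined held the hexamer ATTAAT, which is part of the sequence that Brn3 proteins prefer. RefSeq promoter windows were found for 42 of the 52 genes, 57 windows in all, and the 250 bases before each start were searched on both strands for ATTAAT, which is its own reverse complement, and for TAATTAAT, which contains it. ATTAAT occurred in 1 of the 57 windows (1.8%), against 4.4% of 32851 windows of all genes, and TAATTAAT in 0, against 0.8%. The stretch printed for *Sema3e* is from the plus strand of GRCm38.p6, chr5:14025053-14025138, with the hexamer in capitals, 183 bases before the annotated start. The match is a description of the letters in this window.
Sema3e: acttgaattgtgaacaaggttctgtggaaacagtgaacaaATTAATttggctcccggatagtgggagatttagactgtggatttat

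The 13 membrane-bound semaphorins had a median log2 fold change of −0.01, with 6 above 0 and 7 below. *Sema6d*, a ligand of class A plexins, was at 65.0, 57.0 and 60.4 CPM in A2, A4 and A6 and at 121, 140, 70.8 and 117 CPM in B1, B7, B8 and B9. The groups did not overlap, and the log2 fold change was 0.88 (SE 0.21, edgeR adjusted p = 0.138). *Sema4d*, the plexin-B1 ligand, was at 21.4, 17.2 and 20.5 CPM in controls and at 33.6, 34.7, 22.0 and 35.9 CPM in cKO mice, with B8 above the highest control by less than 1 CPM (log2 fold change 0.68, SE 0.19, edgeR adjusted p = 0.138). *Sema5a* had a log2 fold change of 0.74 with B8 inside the control range, and of 0.094 (edgeR adjusted p = 0.691) with the GC content and length correction.

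*Sema6b* and *Sema6c* had lower means in cKO mice. *Sema6b*, a plexin-A4 ligand and the most abundant semaphorin in controls per kilobase of merged exon, was at 107, 121 and 103 CPM in controls and at 93.6, 62.9, 106 and 69.3 CPM in cKO mice (log2 fold change −0.41, SE 0.19, edgeR adjusted p = 0.172). *Sema6c* was at 93.8, 115 and 100 CPM in controls and at 79.4, 65.2, 95.9 and 69.5 CPM in cKO mice (log2 fold change −0.41, SE 0.16, edgeR adjusted p = 0.140). In both genes B1, B7 and B9 lay below every control and B8 within their range, and with the GC content and length correction the log2 fold changes were −0.072 and −0.20. *Sema6a* was at 174, 186 and 203 CPM in controls and 213, 251, 182 and 273 CPM in cKO mice, with a log2 fold change of 0.29 (SE 0.16, edgeR adjusted p = 0.223). *Sema4b*, *Sema4f*, *Sema4g* and *Sema7a* had log2 fold changes from −0.15 to −0.01, and those of *Sema4a*, *Sema5b* and *Sema4c* were −0.18, 0.13 and 0.17, all with overlapping groups.

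All 9 plexins and both neuropilins, the receptors of the semaphorins, had log2 fold changes above 0, though with the correction for GC content and length those of *Nrp1* and *Nrp2* were −0.21 and 0.0048. *Plxna2*, on the plus strand of chromosome 1 from 194618218 to 194816869, was at 67.3 CPM in A2, 51.2 in A4 and 57.3 in A6, and B1, B7, B8 and B9 had 125, 164, 67.6 and 146 CPM. B8 exceeded A2 by less than 1 CPM, so the lack of overlap was narrow. The log2 fold change was 1.10 (SE 0.27), the largest of the plexins, with an adjusted p of 0.138 in edgeR and 0.0111 in DESeq2. *Plxna1*, the most abundant, was at 275, 251 and 275 CPM in controls and 389, 403, 252 and 369 CPM in cKO mice (log2 fold change 0.41, SE 0.17, edgeR adjusted p = 0.150). *Plxna4* and *Plxnc1* had log2 fold changes of 0.77 and 0.73, in both cases with B8 inside the control range.

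The class B plexins are receptors of class 4 semaphorins. *Plxnb1* was at 132, 120 and 131 CPM in controls and 159, 141, 134 and 151 CPM in cKO mice, and *Plxnb2* at 123, 130 and 130 against 152, 166, 133 and 164 CPM. Both were separate between groups, with log2 fold changes of 0.20 (SE 0.12, edgeR adjusted p = 0.260) and 0.27 (SE 0.12, edgeR adjusted p = 0.172). *Nrp1* was at 54.6, 65.8 and 61.7 CPM in controls and 75.0, 81.8, 53.6 and 87.5 CPM in cKO mice (log2 fold change 0.30, SE 0.18, edgeR adjusted p = 0.267). *Nrp2* was at 115, 115 and 136 CPM in controls and 163, 181, 127 and 165 CPM in cKO mice (log2 fold change 0.38, SE 0.15, edgeR adjusted p = 0.140). B8 lay inside the control range for *Nrp2* and just below it for *Nrp1*, and the other 3 cKO mice were above all controls for both. Of the remaining plexins, *Plxna3* and *Plxnd1* had log2 fold changes of 0.25 and 0.26, and *Plxnb3*, a low gene whose mice spread widely, had 0.63 (SE 0.38, edgeR adjusted p = 0.275).

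B8 therefore stood apart from the other cKO mice over most of the genes. In 30 of the 51 guidance genes (58.8%) B1, B7 and B9 were above all other mice, and in 5 (*Sema3f*, *Sema4a*, *Sema6b*, *Sema6c* and *Unc5a*, 9.80%) they were below all other mice. Over all genes tested the shares were 26.9% and 26.5%. B8 shared its age with B1, and its *Brn3b* level lay between those of the other cKO mice.

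With B8 left out, edgeR called 28 of the 51 guidance genes higher and 5 lower at an adjusted p under 0.05, beside 23.7% and 23.1% of all genes. The choice of B8 followed from its position in these data, and with any other mouse left out 0 guidance genes were called. The called genes with the largest log2 fold changes were *Dcc* at 2.60 (SE 0.30, edgeR adjusted p = 9.01e-05), *Sema3a* at 1.62 (SE 0.27, edgeR adjusted p = 5.08e-04), *Robo1* at 1.60 (SE 0.16, edgeR adjusted p = 7.06e-05) and *Plxna2* at 1.31 (SE 0.13, edgeR adjusted p = 7.06e-05). All 3 Slits were among them, with *Slit2* at 0.96 (SE 0.13, edgeR adjusted p = 1.32e-04), and both neuropilins and 6 of the 9 plexins. The 5 lower genes were *Unc5a* (−0.60), *Sema6b* (−0.55), *Sema6c* (−0.53), *Ntng2* (−0.39) and *Sema3f* (−0.32). *Ntn1* was called in the same fit at 0.67 (SE 0.17, edgeR adjusted p = 0.0059), and of the 28 genes called higher it was the only one in which B8 exceeded every other mouse.

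Base composition moved with these differences. Across the 51 guidance genes the log2 fold change had a Spearman rho of −0.702 with the GC content of the longest transcript and of 0.744 with exon length, against −0.314 and 0.371 across 21775 genes. These are descriptions across genes, which share the same libraries and are not independent replicates. By mouse, rho with GC content was −0.630 in B1, −0.736 in B7, −0.740 in B9 and 0.030 in B8. The 28 genes called higher without B8 had a median GC content of 49.0% and a median longest transcript of 6.86 kb, and the 5 called lower had 61.5% and 3.74 kb.

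Correcting for GC content and for length reduced the median log2 fold change of the guidance genes to 0.20, where the median of all genes was −0.04, and 0 were called in all 7 mice, with 17 higher and 1 lower at an unadjusted edgeR p under 0.05, beside 10.9% and 15.4% of all genes. With the correction and B8 left out, 20 were called higher and 1 (*Ntng1*) lower, 41.2% in all against 33.7% of all genes. The corrected log2 fold changes in all 7 mice were 0.53 for *Plxna2*, 0.32 for *Plxna4*, 0.39 for *Plxnc1*, 0.59 for *Rgmb*, 0.77 for *Sema3a*, 0.20 for *Sema3e* and 0.45 for *Sema6d*. Of the lower genes, *Ntng2* was at −0.03, *Sema3f* at −0.05 and *Unc5a* at −0.07. *Dcc* (1.64), *Ntn1* (0.81), *Slit1* (0.61) and *Slit3* (0.74) stayed within 1.5 times of their uncorrected values. In all 7 mice the correction turned 4 of the 51 log2 fold changes below 0, those of *Nrp1* (−0.21), *Ntng1* (−0.31), *Sema6a* (−0.069) and *Unc5c* (−0.067). It turned 3 above 0, those of *Robo4* (0.036), *Sema4b* (0.030) and *Sema7a* (0.30). Among the 20 called higher with B8 left out were *Dcc* (log2 fold change 1.90), *Robo1* (0.92), *Ntn1* (0.82), *Sema3a* (0.82), *Slit1* (0.76), *Rgmb* (0.75) and *Plxna2* (0.63). *Slit2* was at 0.04 (edgeR adjusted p = 0.830) and *Robo2* at 0.27 (edgeR adjusted p = 0.0754) in that fit, and the 5 genes called lower before the correction were no longer called. What part base composition and length have in the uncorrected differences was not tested beyond this.

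**Figure D4:**
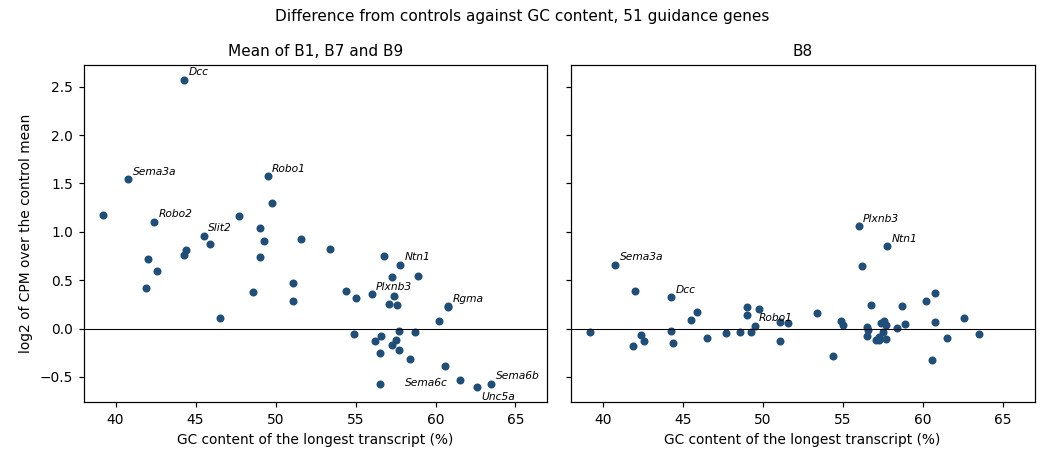
The log2 ratio of CPM to the control mean is plotted against the GC content of the longest transcript for 51 guidance genes, as the mean of B1, B7 and B9 (left) and for B8 (right). On the left the GC-poor genes lie highest and the GC-rich genes lowest, whereas on the right most points stay near 0 at every GC content.

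Some cell type markers also differed between the mice. The summed level of 6 neuronal markers was 4610 to 5495 CPM in controls and 3883, 3877, 4760 and 3627 CPM in B1, B7, B8 and B9. *Stmn2* and *Tubb3* made up most of that sum. Of the 6, 3 were lower in cKO mice at an unadjusted edgeR p under 0.05, while *Syt1* had a log2 fold change of 0.25. The sum of 6 astrocyte markers was 789 to 850 CPM in controls and 1139, 1084, 853 and 1060 CPM in B1, B7, B8 and B9. *Aqp4* and *Slc1a2* were higher at that threshold, whereas *Gfap* (−0.29) and *Aldh1l1* (−0.18) had log2 fold changes below 0. Endothelial markers summed to 132 to 206 CPM in controls and 142 to 199 CPM in cKO mice, each cKO mouse lying inside the control range, with 5 of 6 log2 fold changes above 0, *Kdr* (0.64) and *Tek* (0.63) at an unadjusted p under 0.05, and *Cldn5* at −0.78. Of 6 microglial markers the median log2 fold change was −0.50, with *C1qa* (−1.06) and *Aif1* (−0.95) lower at that threshold. Red blood cell markers, 5 in all, summed to 156, 496 and 132 CPM in A2, A4 and A6 and to 177, 61.6, 179 and 57.7 CPM in B1, B7, B8 and B9, so that A4 stood above all other mice and both P2 mice below. In the oligodendrocyte lineage, *Pdgfra* was at 64.7, 64.3 and 63.1 CPM in controls and 124, 120, 66.2 and 126 CPM in cKO mice, while *Olig1* had a log2 fold change of −0.60. Of 5 dividing-cell markers the median log2 fold change was −0.36, with 2 above 0, and *Mki67* (0.87) was the one with an unadjusted edgeR p under 0.05. No marker of these lists was under 1 CPM on average. Their part in the levels of the guidance genes was not tested.

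Age was examined because the youngest mice were all cKO. In a fit with genotype and age in days, 0 of the 51 guidance genes had an adjusted p under 0.05 for age, as in 0% of all genes (edgeR). Without adjustment 10 had a p under 0.05, or 19.6%, against 12.6% of all genes. Of these, *Plxnb3*, *Sema6b* and *Unc5a* had slopes above 0, at 0.56, 0.22 and 0.26 log2 units per day of age, and *Neo1*, *Nrp1*, *Robo1*, *Robo2*, *Sema3a*, *Sema6a* and *Unc5d* had slopes below 0. *Robo1* had the steepest of the latter, at −0.44 log2 units per day (SE 0.17, edgeR adjusted p = 0.396). *Plxnb3*, a plexin of the oligodendrocyte lineage, was at 1.82 to 3.82 CPM in controls, at 5.63 and 5.62 CPM in the P4 cKO mice B1 and B8, and at 3.07 and 2.36 CPM in the P2 mice B7 and B9. The 10 genes at an unadjusted edgeR p under 0.05 for age became 2 without B9, 3 without B7 and 16 without A4. The shares of all genes in those fits were not counted.

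Within an age the comparison was thinner. Among P4 mice alone, A2 and A6 against B1 and B8, 2 guidance genes had an unadjusted edgeR p under 0.05 (1.18% of all genes) and 0 were called. Against the 2 P2 mice, which had no control of their age, the 3 controls gave 34 called guidance genes of 52 (65.4%), where 46.9% of all genes were called. Against the 2 P4 cKO mice they gave 0 called, and 11 at an unadjusted p under 0.05 (3.69% of all genes). Against the P4 and the P2 cKO mice the log2 fold change was 0.70 and 1.76 for *Robo1*, 0.42 and 1.25 for *Robo2*, 0.31 and 0.86 for *Neo1*, 0.23 and 0.91 for *Unc5d*, 0.72 and 1.39 for *Plxna2*, 0.92 and 1.78 for *Sema3a*, 1.74 and 2.64 for *Dcc*, and 0.66 and 0.76 for *Ntn1*. These comparisons share the controls, and whether the P2 and P4 values differ was not tested. P2 age and genotype cannot be told apart in B7 and B9. These mice also had the largest libraries, at 67792192 and 87572085 counts. Their shares of counts that named no gene, 31.76% and 30.98%, were the lowest. Depth and library make-up therefore cannot be told apart from P2 age either. The P4 cKO mice differed from each other, with B8 within or below the control range for *Dcc*, *Slit2*, *Rgmb*, *Robo1*, *Robo2* and *Unc5d*. B1 lay near B7 and B9 for the first 3 of these and between them and the controls for the last 3 and for *Neo1*.

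Beyond the ligands and receptors, 55 other genes of the same pathways were examined, such as the Slit-Robo GTPase-activating proteins, netrin adaptors and the CRMP family. In edgeR's test of all mice 0 of the 55 were called, 22 were higher and 5 lower at an unadjusted p under 0.05 (16.7% and 13.7% of all genes), and the median log2 fold change was 0.21. DESeq2 called 10 higher and 1 lower, beside 7.41% and 3.04% of all genes. *Srgap1*, which acts downstream of Robo, was at 94.3, 80.2 and 97.2 CPM in controls and 155, 240, 106 and 209 CPM in cKO mice, without overlap (log2 fold change 0.97, SE 0.25, edgeR adjusted p = 0.138). *Cdk5*, a kinase that primes CRMP proteins in semaphorin signalling, was at 115, 136 and 121 CPM in controls and 74.7, 63.5, 110 and 62.1 CPM in cKO mice, below all controls (log2 fold change −0.68, SE 0.20, edgeR adjusted p = 0.138). B8 was the cKO mouse nearest to the controls for both. *Srgap1* and *Cdk5* are named here as the genes of the list with the largest log2 fold change in each direction among those without overlap, a choice made after their values were seen. Without B8, 27 of the 55 were called higher and 11 lower, beside 23.7% and 23.1% of all genes.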

How the data were processed

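Per the labels and the study's methods, the authors aligned trimmed reads with TopHat2 and Bowtie2 (build GRCm38.p5) and made gene counts with HTSeq on GENCODE vM15. The strand and overlap options of HTSeq are not given in the sources used here. The deposited values are raw counts, not normalized. Entries that name no gene (30.98% to 38.18% of all counts) were left out. Symbols, exon lengths and GC content came from GENCODE vM21 (52489 of 52636 identifiers matched).

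In R 4.3.3, edgeR 4.0.16 was fitted to all 7 mice with genotype as the only term (filterByExpr, minimum count 10, TMM, quasi-likelihood test), with Benjamini-Hochberg adjustment over the 21817 genes tested and calls at an adjusted p under 0.05. CPM values are counts scaled to TMM library sizes, and CPM per kb divides them by the length of the merged exons. Single genes were also compared by an exact permutation test of log2 CPM. Alternatives used DESeq2 1.42.0, limma 3.58.1 (voom with sample quality weights), other scalings and filters, age, thinning, a GC content and length correction (mgcv 1.9.3), and each mouse left out. The methods were also run on simulated counts, in which each changed gene had the same fold change in every cKO mouse. Those counts held no trend with GC content, length or age and no mouse apart. They therefore cannot show how the methods handle B8 or such trends. The guidance genes, the other pathway genes and the marker lists were chosen with earlier results of these data known. Values in every mouse are given for the leading gene of each role by length-scaled level, up to 12 genes without overlap and a mean of at least 1 CPM, and 14 fixed symbols; *Rgmb*, *Unc5a*, *Unc5d*, *Sema6b*, *Sema6c*, *Plxnb3*, *Srgap1* and *Cdk5* were added after their values were seen. Each library was counted as 1 replicate. The p-values of the fits set the tested difference against the estimated spread between mice. The permutation test ranked the difference among all splits of the mice. Depth limits the precision of genes at a few CPM, and counting error was not given separately.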

Additional observations from a re-analysis of the deposited data

Results flagged for a closer look

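In 4 of the 51 guidance genes tested, 1 of the 4 cKO mice lay far from the other 3, and in each of them it was B8. The gap between B8 and the nearest cKO mouse, as a share of the whole range of the cKO mice, was 0.962 for *Sema3f*, 0.895 for *Dcc*, 0.882 for *Rgmb* and 0.863 for *Sema4d*. B8 was the lowest cKO mouse for *Dcc*, *Rgmb* and *Sema4d* and the highest for *Sema3f*. Such gaps arise by chance in about 1 of 20 groups of this size. The share of all genes with such a gap was not counted, so the gaps are not read as particular to these genes. The controls, with 3 mice, were not examined in this way.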

How the results depend on the processing

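With all 7 mice, no guidance gene was called by edgeR, whichever scaling, filter, thinning or age term was used, and with any mouse but B8 left out. Calls were made by DESeq2 (15), by limma-voom with sample quality weights (31, or 60.8%, beside 48.5% of all genes), with the P2 cKO mice as the only cKO group (34) and with 1 mouse left out (0 to 33, the latter without B8). With GC content and length corrected and B8 left out, an alternative chosen after seeing the data, 21 were called. In the same order, the other pathway genes gave 11, 39, 40, 0 to 38 and 23 calls. The limma-voom sample weight was 0.167 for B8 and 0.857 to 2.89 for the other mice, so B8 counted for little in that setting. The 25 guidance genes at an unadjusted p under 0.05 became 2 in the P4 mice only, 11 with the P4 cKO mice as the cKO group, and 16 (without A4) to 37 (without B8) with 1 mouse left out. Genes without overlap numbered 10 to 36 with 1 mouse left out. The median log2 fold change stayed between 0.20 and 0.41 in every alternative. Among the 24 genes named by rule the sign turned for *Draxin* (−0.12 in P4 mice only and −0.047 against the P4 cKO mice), *Robo3* (0.0059 against the P4 cKO mice and −0.30 to 0.0059 with 1 mouse left out, the latter without A6), and with the GC and length correction *Nrp1* (−0.21) and *Sema6a* (−0.069). With B8 also left out, these were −0.22 and −0.068, and *Nrp2* (−0.0047) and *Ntng2* (0.063) turned too. Over all 51 genes tested, the correction turned 4 signs below and 3 above 0, and with B8 also left out 5 below and 6 above, among them that of *Unc5c* (−0.067 and −0.032). The cause was not tested. No paired analysis was possible because no replicate number occurs in both genotypes. Genes at a few CPM are limited by depth.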
